A study of Homo sapiens with 6 samples.

Results

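The 38 genes described here encode the structural proteins of the extracellular matrix that T24 cells express: collagen chains, laminin chains, fibronectin, and a small group of matrix glycoproteins with the cross-linking enzyme LOX. They were chosen by name and level. A protein-coding gene entered when its symbol named a collagen chain (COL, a number, A, a number) or a laminin chain (LAMA, LAMB or LAMC with a number), or was FN1, SPARC, THBS1, THBS2, FBN1, FBN2, NID1, NID2, TNC or LOX, and when its mean over the 6 libraries was at least 0.5 CPM, counts scaled to a library of 1000000. Of the 65 genes matched by name and analysed here, 38 reached this level. All 38 passed the filter on low counts, which left 15099 of the 63677 identifiers in the table for testing. The mean was taken over both groups together. COL3A1 reached the limit only through the siRBM3 group, with scaled means of 0.44 CPM in control and 0.87 CPM in siRBM3. Its difference between the groups thus entered the choice. The members nearest the limit were COL3A1 at 0.65 CPM and COL6A3 at 0.88 CPM, and just outside it lay COL21A1 at 0.47 CPM and COL5A1 at 0.40 CPM.

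T24 is an established cell line from an invasive, high-grade bladder carcinoma, and all libraries come from this 1 line. In serum-free medium with a lipid reagent, cells received either a non-targeting siRNA (control) or a pool of 2 siRNAs against the RNA-binding protein RBM3 (siRBM3), in each case at 25 nM for 4.5 h, and were harvested on the day after in full medium. Stranded libraries of polyadenylated RNA were made from 3 samples per group, numbered 1, 3 and 5 in control and 3, 4 and 5 in siRBM3, to find the transcripts that differ when RBM3 is silenced. The samples are said to be triplicates without a statement that they came from separate cultures, so the p-values measure the spread between these samples, which may be technical.

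RBM3, the targeted gene, stood at 225, 368 and 301 CPM in control replicates 1, 3 and 5 and at 54.1, 90.1 and 58.4 CPM in siRBM3 replicates 3, 4 and 5, so that the groups were apart (log2 fold change -2.14, SE 0.24, edgeR quasi-likelihood test, Benjamini-Hochberg FDR 0.0822). No gene had a lower FDR in that test, and the adjustment gave this same value to other genes too. Library totals ran from 23603992 to 45098612 counts, the deepest being siRBM3 replicate 3, in which mitochondrial genes also took 9.40% of the counts against 1.63% to 4.15% in the others. Keratins of simple epithelium were high in all libraries (KRT7 at 2354 to 3240 CPM), whereas CDH1, KRT5 and the uroplakins UPK1A, UPK1B and UPK3A were each below 1 CPM. Of the 7 fibroblast markers 4 reached a mean of 0.5 CPM, PDGFRB (1.64 to 3.16 CPM) and the collagen genes COL1A1, COL1A2 and COL3A1, whereas DCN and LUM were at or near 0. The blood-cell marker PTPRC was at 0.04 to 0.17 CPM, and of the endothelial markers CDH5 was at 27.2 to 40.4 CPM and VWF at 0.34 to 0.69 CPM. A bulk sample cannot tell fewer cells of a type from less RNA per cell.

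Collagens are built from 3 chains wound into a triple helix, and which chains a cell makes decides which collagen it can assemble. Type IV collagen and the laminins, which are trimers of an alpha, a beta and a gamma chain, form the sheets of the basement membrane on which an epithelium rests, with nidogen as a link between them. Fibronectin, thrombospondins and tenascin sit in the looser matrix and bind integrins at the cell surface. Matrix of these kinds, around and below the urothelium, is what an invading bladder tumour cell crosses.

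T24 cells carried a matrix programme led by 1 gene. FN1, which encodes fibronectin, had the highest count of all genes in each of the 6 libraries, where it took 2.01% to 2.53% of all counts. Behind it came chains of type VI and type IV collagen, COL18A1, SPARC, COL5A2 and the laminin chains LAMB1 and LAMA5. After RBM3 silencing no member passed the thresholds of the study (fold change of at least 1.5 and FDR below 0.01) in the edgeR test. Of all 15099 genes tested, RBM3 included, 0 passed them there. DESeq2, the tool of the study, called 1 member, LAMB3, beside 1.22% of the 13068 genes with an adjusted p. The smallest p among the members belonged to LAMB3, at a log2 fold change of -0.60. LAMB3, a chain of the laminin of epithelial anchoring structures, was lower in every siRBM3 library than in every control library. The same held for 9.93% of all genes tested. LAMB1 and LAMC1, chains of more widespread laminins, had smaller positive log2 fold changes (0.25 and 0.12) and did not reach an unadjusted edgeR p under 0.05. Both were higher in every siRBM3 library, as were 9.98% of all genes. For LAMC1 the lowest siRBM3 library, at 523.6 CPM, was nearly level with the highest control, at 523.0 CPM.

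**Figure D1:**
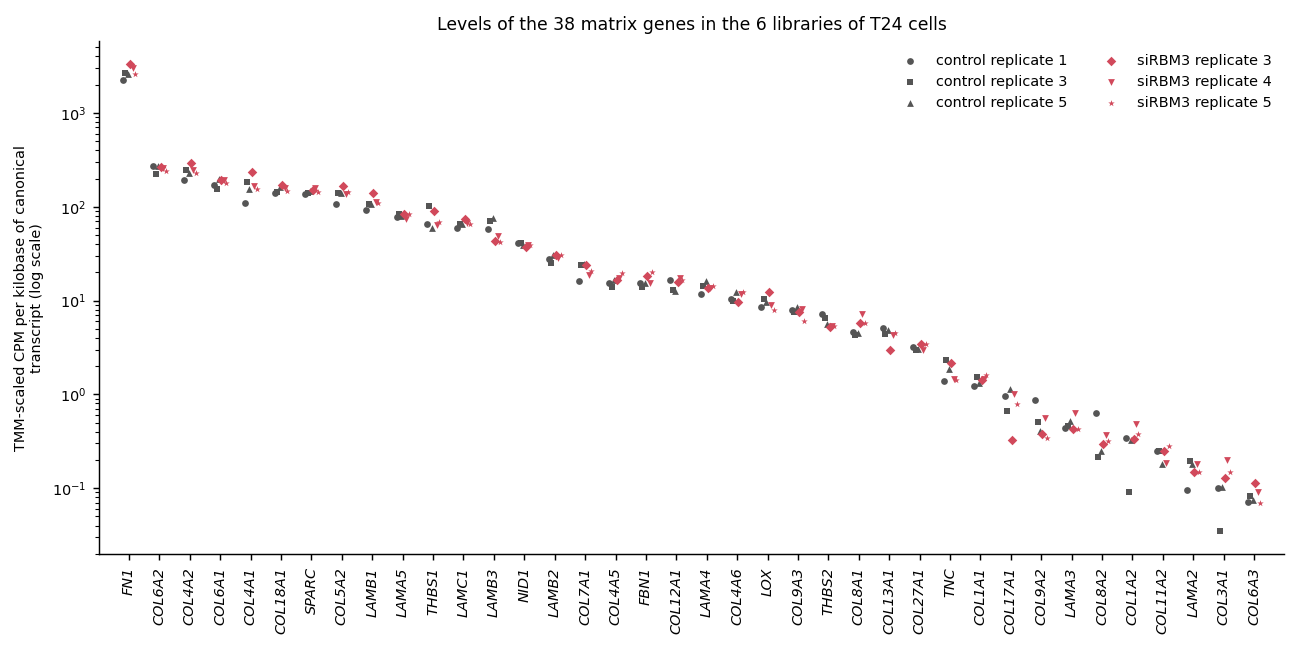
Level of each of the 38 matrix genes in each of the 6 libraries, as TMM-scaled CPM per kilobase of the canonical transcript on a log axis, with genes in order of their mean; grey symbols are control and red symbols siRBM3 libraries. FN1 stands apart at 2261 to 3317, the next gene, COL6A2, lies at 223 to 270, and the lowest, COL6A3, at 0.0690 to 0.113.

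Levels were compared between genes only per kilobase of the Ensembl canonical transcript, after scaling the counts by edgeR's TMM factors. On that scale FN1 averaged 2748 CPM per kilobase over the 6 libraries. COL6A2 and COL4A2 followed at 254 and 239, and their ranges over libraries, 223 to 270 and 194 to 289.5, overlapped. COL6A1 stood at 181, COL4A1 at 167, COL18A1 at 153, SPARC at 146 and COL5A2 at 139, so that 6 of the 7 genes directly behind fibronectin encode collagen chains. The highest laminin chain was LAMB1 at 111, and LAMA5 (80.0), LAMC1 (66.1) and LAMB3 (56.6) were also among the higher laminins. The order below FN1 and COL6A2 depended on the length used: per kilobase of the union of all annotated exons, the length used at first and replaced after the data were seen, COL4A2 stood in place 7 rather than 3, COL4A1 in 8 rather than 5 and LAMB1 in 14 rather than 9.

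The cells expressed some chains far above the partners with which they are known to assemble. COL5A2, the second chain of type V collagen, was at 139 CPM per kilobase, whereas COL5A1, the chain common to the main forms of type V, was below the limit of 0.5 CPM, with 5 to 17 counts in each library. Type VI collagen needs a further chain beside COL6A1 and COL6A2, and the one most widely used, COL6A3, was the lowest member of all at 0.0838 CPM per kilobase, with 18 to 49 counts in each library; COL6A5 and COL6A6 had at most 2 counts in any library. LAMA3, the alpha chain that joins LAMB3, averaged 0.486 CPM per kilobase against 56.6 for LAMB3. Its canonical transcript is the long form of 10651 bases, so a shorter transcript would have a higher level per kilobase at the same count. These are levels of mRNA, and no protein was measured.

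The chains of type I and type III collagen, listed here among the fibroblast markers, were low. COL1A1 averaged 1.43 CPM per kilobase over the libraries, COL1A2 0.325 and COL3A1 0.119, and of the 11 fibrillar collagen genes looked for by name, 5 were below the limit of 0.5 CPM. By contrast 8 of the 11 laminin genes analysed and 4 of 6 type IV collagen genes reached it, the missing type IV chains being COL4A3 and COL4A4, with at most 4 counts in any library. Among the fibril-associated collagens 3 of 10 reached the limit, COL12A1, COL9A3 and COL9A2.

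FN1 lies on the minus strand of chromosome 2 from 216225163 to 216300796 (GRCh37, ENSG00000115414). In control replicates 1, 3 and 5 it stood at 18973, 22538 and 21963 CPM, and in siRBM3 replicates 3, 4 and 5 at 27828, 25327 and 21703 CPM. One siRBM3 library, replicate 5, thus lay inside the control range, and the groups overlapped. The log2 fold change was 0.24 (SE 0.13, 95% confidence interval -0.06 to 0.54, edgeR, Benjamini-Hochberg FDR 0.483). Without TMM scaling, as a plain share of each library's counts, FN1 averaged 2.15% ± 0.12 in control and 2.44% ± 0.14 in siRBM3 (SD, n = 3 each), and the groups did not overlap (exact two-sided permutation test, p = 0.1, the smallest that 3 against 3 allows). The 38 genes together took 3.21% ± 0.17 of the counts in control and 3.55% ± 0.13 in siRBM3 (exact permutation p = 0.1). With FN1 left out these shares were 1.06% ± 0.04 and 1.11% ± 0.03 (exact permutation p = 0.3), so that most of the difference in the sum lay in the single gene FN1. The next-highest gene was ACTB in 4 libraries and the mitochondrial MT-ND4 in siRBM3 replicates 3 and 4, and FN1 exceeded it by a ratio of 1.54 to 3.52.

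The RefSeq promoter table used here (GRCh38.p14, 250 bases before to 50 after each start) held 40 windows for 31 of the 38 genes. The FN1 window, chr2:215436019-215436318 on the minus strand, is printed because FN1 leads every library. Capitals mark a cAMP response element (CRE, TGACGTCA), CCAAT and GC boxes (GGGCGG), each searched on both strands and allowed to overlap one another.

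FN1: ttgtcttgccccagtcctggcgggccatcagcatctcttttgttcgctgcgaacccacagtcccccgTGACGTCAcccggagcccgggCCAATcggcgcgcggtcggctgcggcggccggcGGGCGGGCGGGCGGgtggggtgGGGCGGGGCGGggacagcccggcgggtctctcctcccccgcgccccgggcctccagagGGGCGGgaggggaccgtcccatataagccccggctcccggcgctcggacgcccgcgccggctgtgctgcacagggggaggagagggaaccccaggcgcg

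Of the 40 windows this was the only one with the CRE letters, which 1.85% of all 35116 promoter windows in the table contain. GC boxes were found in 65% of the members' windows against 45% of all windows, CCAAT in 30% against 34.6%, and TATAAA in 15% against 11.5%. A match to these letters describes the sequence and is not a measured binding site.

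Among the 38 genes, 0 were called by edgeR or limma-voom, as were 0 of the 15099 genes tested (0%). At an unadjusted p under 0.05 in the edgeR test, 3 members were higher in siRBM3 cells (COL8A1, FBN1 and COL3A1), or 7.89%, beside 6.56% of all genes tested. In the other direction 2 members were lower (LAMB3 and THBS2), or 5.26%, beside 6.58% of all genes. DESeq2, the tool named in the methods of the study, called 1 member, LAMB3, where it called 1.22% of the 13068 genes to which it gave an adjusted p. In 6 members the lowest siRBM3 library was above the highest control (LAMC1, LAMB1, FBN1, COL4A5, COL8A1 and COL3A1), or 15.8%, beside 9.98% of all genes. In 2 members the highest siRBM3 library was below the lowest control (LAMB3 and THBS2), or 5.26%, beside 9.93% of all genes. For LAMC1 (523.0 and 523.6 CPM), FBN1 (180.5 and 180.7 CPM) and COL4A5 (108.9 CPM in both) the highest control and lowest siRBM3 library were nearly level. With RLE factors in place of TMM, 5 members rather than 8 were without overlap. COL3A1, counted here and at the unadjusted threshold, entered the members only through its siRBM3 level. With the filter on low counts, members at the unadjusted threshold were thus about as frequent as all genes. Without the filter, 8 members were higher at that threshold (21.1%, beside 4.7% of all 30090 genes and 8.07% of the 15099 that pass the filter) and 1, LAMB3, was lower (2.63%, beside 4.73% and 8.44%). COL12A1, COL4A1, COL5A2, FN1 and LAMB1 were added there to the 3 higher members named above.

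The median log2 fold change over the members was 0.08, against -0.01 over all genes, and 25 of the 38 were higher in siRBM3 cells on average. The median size of the change, regardless of sign, was 0.14 for the members and 0.17 for all genes. The 95% confidence interval lay wholly within a 1.5-fold change in either direction for 25 of the 38, among them FN1, COL4A2, COL6A1, COL6A2, COL18A1, SPARC, LAMB1, LAMC1, LAMA5 and NID1. For these genes the interval bounded the difference between these samples below the fold threshold of the study. The intervals are for each gene alone, are not adjusted for the number of genes, and rest on a spread that may be technical. The intervals were widest for genes with few counts, such as COL3A1, COL1A2, COL17A1 and COL9A2.

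**Figure D2:**
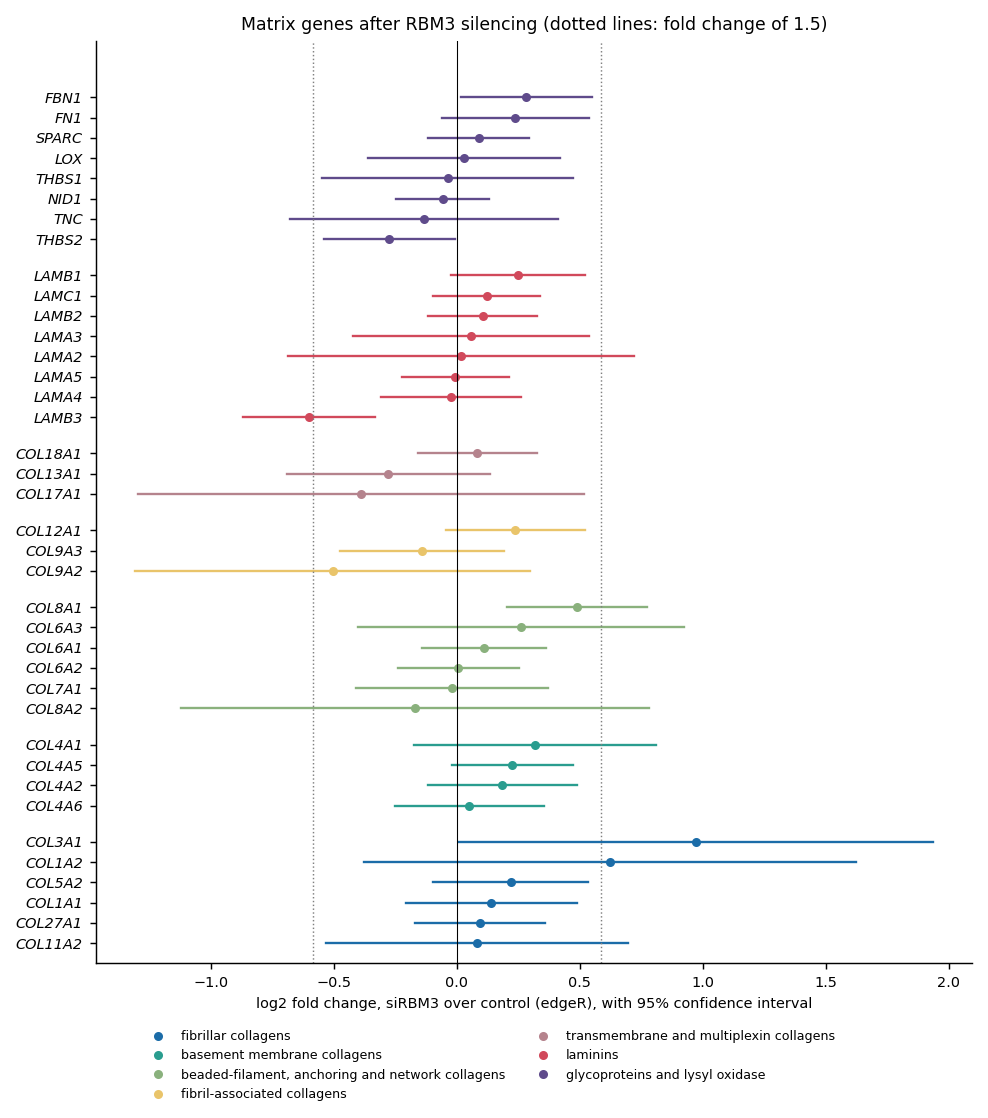
Log2 fold change of siRBM3 over control for the 38 matrix genes with 95% confidence intervals from the edgeR quasi-likelihood fit, grouped by role; dotted lines mark a 1.5-fold change. The fibrillar and basement membrane collagens all have points at or above 0.05, the laminins run from -0.60 to 0.25, and LAMB3 and THBS2 have intervals wholly below 0.

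The 4 type IV collagen genes all had positive fold changes, from 0.05 to 0.32 on the log2 scale with a median of 0.20, and none passed the test. COL4A1, which encodes a chain of the type IV network found in nearly all basement membranes, stood at 723, 1198 and 1003 CPM in control replicates 1, 3 and 5 and at 1531, 1101 and 1013 CPM in siRBM3 replicates 3, 4 and 5. Its extremes were control replicate 1 and siRBM3 replicate 3, and the other 4 libraries lay between 1003 and 1198 CPM in no order by group. The log2 fold change was 0.32 (SE 0.21, 95% interval -0.17 to 0.81, edgeR FDR 0.575), and omitting single libraries gave 0.12 to 0.49. COL4A2, its partner in the same triple helix, showed the same arrangement, at 1249, 1576 and 1494 CPM in control and 1866, 1576 and 1465 CPM in siRBM3 (log2 fold change 0.18, SE 0.13, FDR 0.600), and omitting single libraries gave 0.08 to 0.26.

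COL4A5 and COL4A6 encode the chains of the type IV networks found in some specialised basement membranes. COL4A5 stood at 100.2, 90.2 and 108.9 CPM in control and 108.9, 113.6 and 127.3 CPM in siRBM3, so the groups touched without overlapping, the highest control and lowest siRBM3 library being nearly level (log2 fold change 0.23, SE 0.11, edgeR FDR 0.423). COL4A6 was at 64.5 to 83.1 CPM over all libraries and its groups overlapped (0.05, SE 0.13).

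COL4A1 and COL4A2 lie head to head on chromosome 13 of GRCh37, COL4A1 on the minus strand from 110801310 to 110959504 and COL4A2 on the plus strand from 110958159 to 111165556, so that their annotated bodies overlap at the starts. In RefSeq their start sites are 127 bases apart, and the sequence from one start to the other, chr13:110307157-110307284 of GRCh38.p14 on the plus strand, is shown because both genes are read outward from it. Capitals mark 1 CCAAT box and 1 GC box.

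COL4A1 to COL4A2: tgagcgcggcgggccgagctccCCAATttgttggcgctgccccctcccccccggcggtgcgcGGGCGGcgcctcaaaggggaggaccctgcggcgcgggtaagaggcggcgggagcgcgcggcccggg

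Within a library the count of COL4A2 per kilobase was 1.24 to 1.75 times that of COL4A1. The log2 ratio of COL4A2 to COL4A1 was 0.59 ± 0.20 in control and 0.44 ± 0.14 in siRBM3 (SD, n = 3 each), a difference of -0.14 (SE 0.14, exact two-sided permutation p = 0.4). Over the 6 libraries the highest level was 2.12 times the lowest for COL4A1 and 1.49 times for COL4A2. COL4A5 and COL4A6 lie head to head on chromosome X, 341 bases apart.

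**Figure D3:**
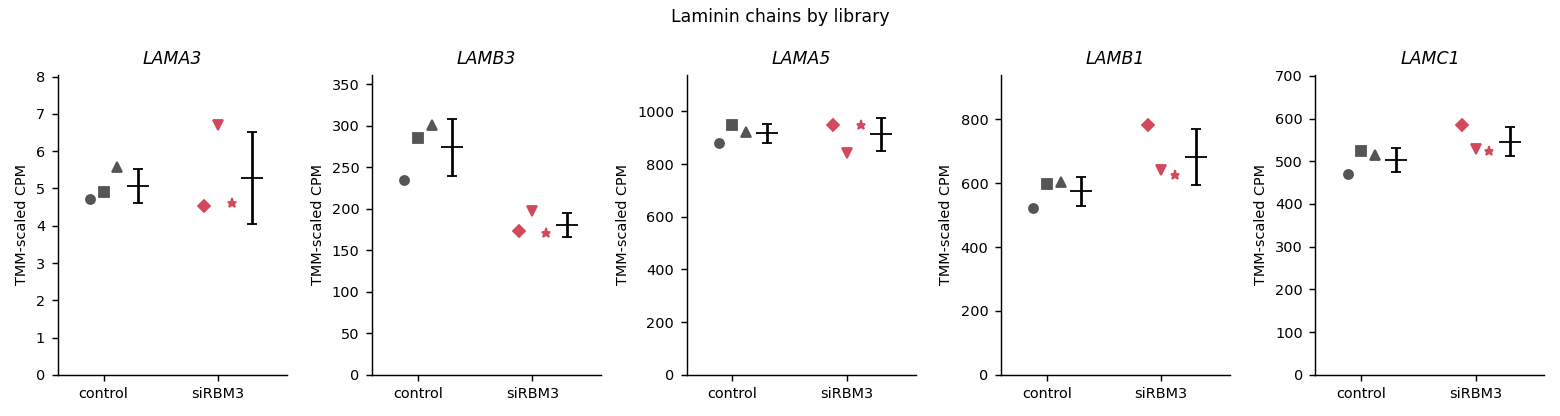
TMM-scaled CPM of 5 laminin chains by library, 1 symbol for each library, with the group mean and SD to the right of each group (n = 3). LAMB3 is lower in all 3 siRBM3 libraries while LAMA3 stays near 5 CPM in both groups, LAMB1 and LAMC1 are higher in all 3 siRBM3 libraries, and LAMA5 overlaps. For LAMC1 the highest control and the lowest siRBM3 library are nearly level.

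Among the laminins LAMB3 alone had an unadjusted p under 0.05, and the chains are taken by the trimer in which they serve. LAMB3, the beta chain of the laminin that anchors epithelia through hemidesmosomes, lies on the minus strand of chromosome 1 from 209788215 to 209825770 (GRCh37, ENSG00000196878). It stood at 235.0, 285 and 301 CPM in control replicates 1, 3 and 5 and at 173, 197 and 171 CPM in the siRBM3 replicates 3, 4 and 5. Group means were 274 ± 34.6 and 180.3 ± 14.3 CPM (SD, n = 3 each), and every siRBM3 library was below every control library. The log2 fold change was -0.60 (SE 0.12, 95% interval -0.87 to -0.33), with an unadjusted p of 0.00078 and a Benjamini-Hochberg FDR of 0.112 in the edgeR test, the lowest FDR among the members. DESeq2 called it, with a Benjamini-Hochberg adjusted p of 0.0038, and over the alternatives run its FDR ranged from 8.1e-05 to 0.379. Omitting single libraries gave fold changes of -0.70 to -0.53.

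LAMA3, the alpha chain of the trimer that LAMB3 serves, was at 4.72, 4.90 and 5.57 CPM in control and 4.53, 6.72 and 4.60 CPM in siRBM3, and its groups overlapped (log2 fold change 0.06, SE 0.21).

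The keratins KRT7 and KRT8, taken here as epithelial markers and not as matrix genes, were also lower in every siRBM3 library. The 12 epithelial and urothelial markers, 7 of which reached 0.5 CPM, summed to 5077 to 5882 CPM in control and 4223 to 4321 CPM in siRBM3, most of it from KRT7 (log2 fold change -0.38, edgeR FDR 0.170) and KRT8 (-0.37, FDR 0.309). EPCAM and GATA3 went the other way and were higher in every siRBM3 library. EPCAM averaged 5.47 CPM in control and 6.47 CPM in siRBM3 (log2 fold change 0.24, edgeR FDR 0.578). GATA3 averaged 10.8 and 13.9 CPM (0.37, FDR 0.353). KRT18, KRT19 and UPK2 overlapped between the groups, and KRT5 and UPK3A were at or near 0. The part of these markers in the lower LAMB3 level was not tested. siRBM3 replicate 3, with its mitochondrial share of 9.40%, stood at 173 CPM for LAMB3, against 197 and 171 CPM in replicates 4 and 5. Without it the log2 fold change of LAMB3 was -0.57. The part of the mitochondrial share in the LAMB3 level was not tested.

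Of the 40 windows of the members, 1 window of LAMB3 and the window of LAMA3, 5% of the windows, held the AP-1 letters TGANTCA, which 7.71% of all 35116 windows contain. They are printed because they hold these letters, LAMB3 having the smallest p among the members and LAMA3 encoding its partner chain. The other windows of LAMB3 held no AP-1 letters. AP-1, CCAAT and GC-box letters are in capitals, on either strand. The LAMB3 window is chr1:209651325-209651624 on the minus strand, the furthest downstream of 3 windows for this gene, and the LAMA3 window is chr18:23872770-23873069 on the plus strand (GRCh38.p14).

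LAMB3: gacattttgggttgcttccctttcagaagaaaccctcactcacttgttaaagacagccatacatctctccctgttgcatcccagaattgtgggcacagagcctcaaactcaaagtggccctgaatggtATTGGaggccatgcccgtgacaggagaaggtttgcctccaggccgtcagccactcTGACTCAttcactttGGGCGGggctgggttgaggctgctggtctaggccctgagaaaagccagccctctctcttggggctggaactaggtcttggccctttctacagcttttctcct
LAMA3: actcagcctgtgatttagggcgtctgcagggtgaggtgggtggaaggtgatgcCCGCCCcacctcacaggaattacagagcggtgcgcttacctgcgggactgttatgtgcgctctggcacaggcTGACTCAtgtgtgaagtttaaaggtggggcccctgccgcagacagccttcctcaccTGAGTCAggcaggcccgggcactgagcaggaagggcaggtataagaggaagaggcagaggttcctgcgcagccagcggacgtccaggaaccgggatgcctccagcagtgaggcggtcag

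LAMB3 and LAMA3 differed in level, at 56.6 and 0.486 CPM per kilobase, and LAMB3 alone of the pair was lower in every siRBM3 library. The windows describe annotated starts, and which start these cells used was not measured. The LAMA3 window was not matched to the long transcript used for its level per kilobase.

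LAMB1 and LAMC1, which serve in the laminins of most basement membranes, had small positive fold changes with intervals that include 0. LAMB1 stood at 521, 599 and 603 CPM in control and 784, 640.0 and 625 CPM in siRBM3 (log2 fold change 0.25, SE 0.12, 95% interval -0.02 to 0.52, edgeR FDR 0.424). The gap between the highest control and the lowest siRBM3 library was small, and siRBM3 replicate 3 lay well above the rest. LAMC1 stood at 470.3, 523 and 514 CPM in control and 586, 529 and 524 CPM in siRBM3 (0.12, SE 0.10, 95% interval -0.10 to 0.34, FDR 0.637), with the same library highest. Without siRBM3 replicate 3 the log2 fold changes were 0.14 for LAMB1 and 0.07 for LAMC1. LAMC1 lies on the plus strand of chromosome 1 from 182992555 to 183114727 (GRCh37).

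LAMA5, the alpha chain that pairs with LAMB1 and LAMC1 in epithelial basement membranes, stood at 878, 950 and 920.5 CPM in control and 947, 840.2 and 950 CPM in siRBM3 (log2 fold change -0.01, SE 0.10), and its sign changed under some alternatives. LAMB2, LAMA4 and LAMA2 had log2 fold changes of 0.10, -0.02 and 0.02, and their groups overlapped.

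Ratios of partner chains within a library need no scaling between libraries, and 5 such ratios were compared. LAMB1 to LAMC1 had a mean log2 ratio of 0.19 ± 0.04 in control and 0.32 ± 0.09 in siRBM3 (SD, n = 3 each), higher in all 3 siRBM3 libraries. The difference, 0.12 (SE 0.06), gave an exact two-sided permutation p of 0.1, the smallest possible, and 0.5 after Benjamini-Hochberg adjustment over the 5 ratios. COL6A2 to COL6A1 differed by -0.11 (SE 0.06, exact permutation p = 0.2), COL5A2 to COL5A1 by -0.61 (SE 0.50, p = 0.4) and COL1A2 to COL1A1 by 0.71 (SE 0.73, p = 0.6), and in each of these the groups overlapped. After adjustment these ratios and that of the type IV chains stood at exact permutation p-values of 0.5 to 0.6.

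**Figure D4:**
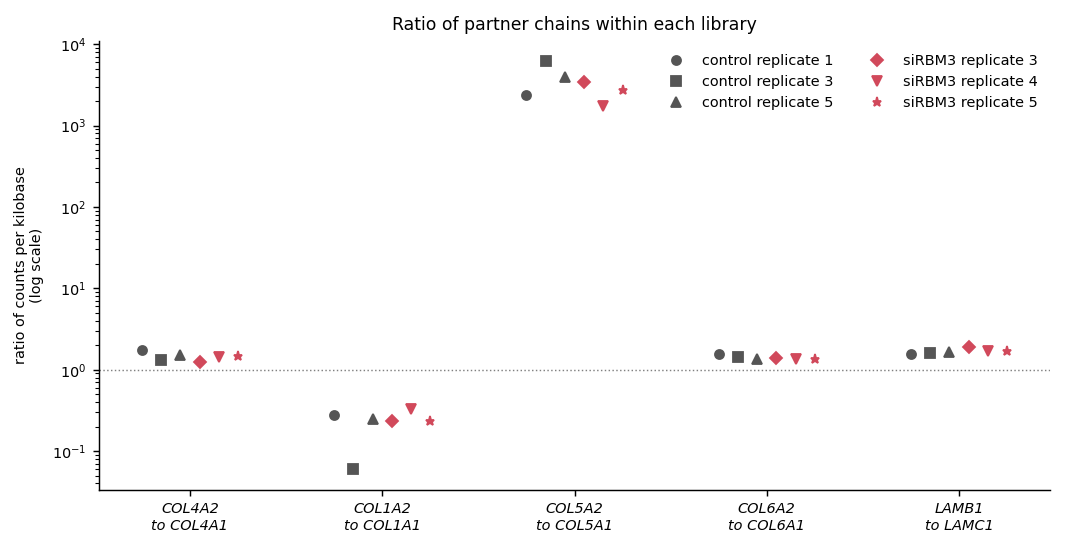
Ratio of counts per kilobase of 5 pairs of partner chains in each library, on a log axis with a dotted line at a ratio of 1; grey symbols are control and red symbols siRBM3 libraries. COL5A2 exceeds COL5A1 by ratios of 1724 to 6185, COL1A2 lies below COL1A1 at 0.0598 to 0.332, and the other 3 pairs lie between 1.24 and 1.88.

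Of the pairs compared, the chains of type IV and type VI collagen and LAMB1 with LAMC1 lay close to each other, with per-kilobase ratios of 1.24 to 1.88 over all libraries. The ratio of COL5A2 to COL5A1 rests on 5 to 17 counts of COL5A1, and that of COL1A2 to COL1A1 on 12 to 69 counts of COL1A2, so counting error is large in both. For COL1A2 to COL1A1, leaving out control replicate 3, where COL1A2 had 12 counts, moved the difference from 0.71 to -0.01.

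The 6 fibrillar collagen members, whose proteins form or shape the banded fibres of connective tissue, all had positive fold changes, with a median of 0.18 on the log2 scale. COL5A2 stood at 722, 957 and 957 CPM in control and 1140, 937 and 988 CPM in siRBM3 (log2 fold change 0.22, SE 0.14, 95% interval -0.10 to 0.53, edgeR FDR 0.546). Its lowest library was again control replicate 1, without which the log2 fold change was 0.09, and its highest siRBM3 replicate 3, without which it was 0.13. COL3A1 was at 0.55, 0.19 and 0.57 CPM in control and 0.71, 1.11 and 0.81 CPM in siRBM3, without overlap (log2 fold change 0.97, SE 0.42, edgeR FDR 0.377). These levels correspond to 5 to 29 counts per library, and without control replicate 3, the lowest, the log2 fold change was 0.63. COL3A1 entered the members only through its siRBM3 level, so its positive fold change is not independent of that choice. COL1A2 was at 1.76, 0.46 and 1.66 CPM in control and 1.68, 2.45 and 1.90 CPM in siRBM3 (0.62, SE 0.44, and 0.23 without control replicate 3), and COL1A1 at 7.31, 8.95 and 7.87 CPM in control and 8.46, 8.61 and 9.52 CPM in siRBM3 (0.14, SE 0.15), both with overlap. COL27A1 and COL11A2 had log2 fold changes of 0.09 and 0.08. The 7 fibroblast markers, which include COL1A1, COL1A2 and COL3A1, summed to 11.4 to 12.3 CPM in control and 12.6 to 15.6 CPM in siRBM3, and DCN and LUM had at most 0.04 CPM in any library. The part of other cells in the COL3A1 values was not tested.

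The beaded-filament, anchoring and network collagens comprised 6 members. COL6A1 and COL6A2, the chains of the beaded filaments that link cells to the surrounding matrix, overlapped between the groups. COL6A2 stood at 929, 767 and 928 CPM in control and 915, 884 and 837 CPM in siRBM3 (log2 fold change 0.01, SE 0.11, 95% interval -0.24 to 0.25), and its sign changed with library size alone as the scaling and when single libraries were left out. COL6A1 stood at 721, 648 and 825 CPM in control and 803, 807 and 759 CPM in siRBM3 (0.11, SE 0.11, FDR 0.716).

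COL8A1, which encodes a chain of the hexagonal lattice of type VIII collagen, had the smallest p of the members that were higher in siRBM3 cells. It lies on the plus strand of chromosome 3 from 99357319 to 99518070 (GRCh37, ENSG00000144810). It stood at 25.4, 23.6 and 24.6 CPM in control and 31.9, 39.5 and 32.0 CPM in siRBM3, means of 24.6 ± 0.90 and 34.5 ± 4.38 CPM (SD, n = 3 each), without overlap. The log2 fold change was 0.49 (SE 0.12, 95% interval 0.20 to 0.77, edgeR FDR 0.175). DESeq2 gave an adjusted p of 0.0385, short of the threshold of 0.01, and the fold change stayed between 0.38 and 0.54 over all alternatives. COL8A2, the other chain of type VIII, was at 0.99 to 2.96 CPM and overlapped (-0.17, SE 0.42, and 0.49 without control replicate 1), and COL7A1, the anchoring fibril collagen that binds the LAMB3-containing laminin, overlapped at -0.02 (SE 0.17, 95% interval -0.41 to 0.37).

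Of the fibril-associated and transmembrane collagens, 2 had positive and 4 negative fold changes, and none passed the test. COL12A1, which decorates the surface of fibrils, stood at 195, 151 and 147 CPM in control and 184, 204 and 194 CPM in siRBM3 (log2 fold change 0.24, SE 0.12, edgeR FDR 0.463). COL13A1, a transmembrane collagen, was at 15.9, 13.8 and 15.2 CPM in control and 9.38, 13.7 and 14.1 CPM in siRBM3 (-0.28, SE 0.18, FDR 0.556). COL17A1, the transmembrane collagen of hemidesmosomes, was at 5.38, 3.71 and 6.36 CPM in control and 1.85, 5.69 and 4.40 CPM in siRBM3 (-0.39, SE 0.39, FDR 0.723). Both rested largely on a low value in siRBM3 replicate 3, without which the log2 fold changes were -0.11 and -0.03.

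COL9A2, at 2.48, 1.45 and 1.17 CPM in control and 1.07, 1.58 and 0.97 CPM in siRBM3, had the lowest fold change of the fibril-associated group (-0.51, SE 0.35, FDR 0.585). Without control replicate 1, the highest library for this gene, the log2 fold change was -0.13. COL9A3, another chain of type IX collagen, stood at 19.7, 18.7 and 21.5 CPM in control and 19.1, 20.1 and 15.1 CPM in siRBM3, with overlap (-0.14, SE 0.15, FDR 0.728). COL18A1, the basement membrane proteoglycan from which endostatin is cleaved, stood at 749, 780 and 883 CPM in control and 913, 856 and 787 CPM in siRBM3 (0.08, SE 0.11, 95% interval -0.16 to 0.33). Of the exon bases of COL18A1, 18.5% overlap another annotated gene on the opposite strand.

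Among the other glycoproteins, FBN1 and THBS2 had the smallest p in each direction, and neither passed the test. FBN1, the main protein of elastic microfibrils, stood at 180.5, 160.4 and 177 CPM in control and 212, 180.7 and 237 CPM in siRBM3, with siRBM3 replicate 4 barely above the highest control (log2 fold change 0.28, SE 0.12, 95% interval 0.02 to 0.55, edgeR FDR 0.354). THBS2, a matricellular thrombospondin, stood at 40.6, 36.8 and 32.3 CPM in control and 29.8, 30.5 and 30.3 CPM in siRBM3, without overlap (-0.27, SE 0.12, 95% interval -0.54 to -0.01, edgeR FDR 0.366). Of its exon bases 31.2% overlap a gene on the other strand, and the strand setting of the counting was not stated.

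SPARC, a calcium-binding glycoprotein that binds collagen, stood at 467, 488 and 511 CPM in control and 523, 542 and 493 CPM in siRBM3 (log2 fold change 0.09, SE 0.09, 95% interval -0.12 to 0.29, FDR 0.728). NID1, the nidogen that links laminin to type IV collagen, was the steadiest member, with a highest-to-lowest ratio of 1.09 over the 6 libraries and a log2 fold change of -0.06 (SE 0.08). THBS1, TNC and LOX had log2 fold changes of -0.04, -0.13 and 0.03, all with overlap. THBS1 spread from 463 to 802 CPM over the libraries, more within the control group than between the groups.

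**Figure D5:**
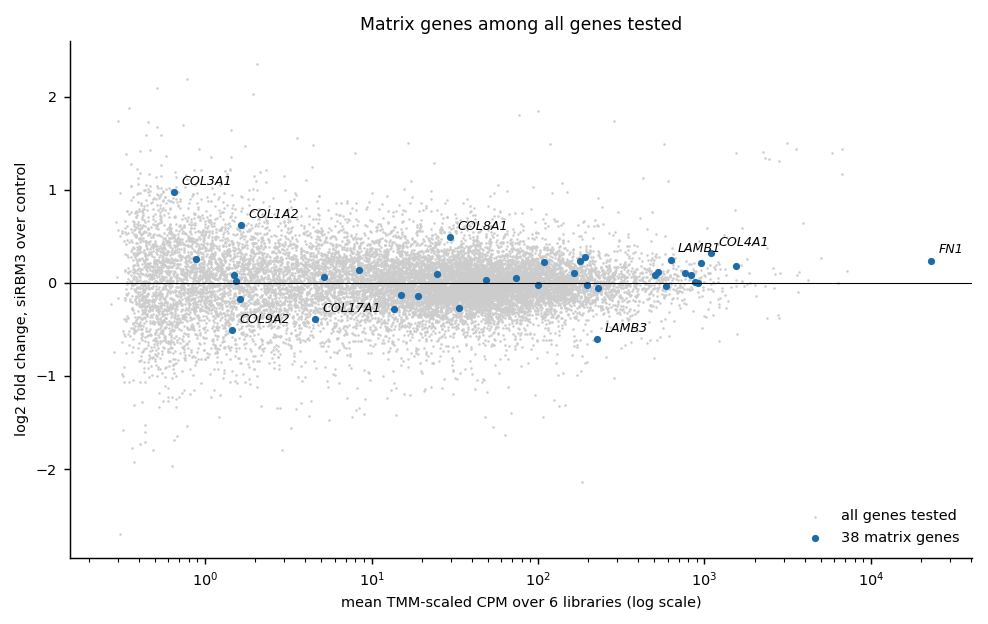
Log2 fold change of siRBM3 over control against mean TMM-scaled CPM (log axis) for the 15099 genes tested, with the 38 matrix genes in blue. FN1 is the point furthest to the right at a log2 fold change of 0.24, LAMB3 lies at -0.60, and the members with the largest positive values, COL3A1 and COL1A2, have few counts.

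A pair of libraries took more than an even part of the extremes. Control replicate 1 was the lowest library for 13 of the 38 members (34.2%), beside 20.4% of all genes tested, and siRBM3 replicate 3 the highest for 10 (26.3%), beside 19.0% of all genes. FN1, COL4A1, COL4A2, COL5A2, COL18A1, LAMB1 and LAMC1 had both, with control replicate 1 lowest and siRBM3 replicate 3 highest. Without siRBM3 replicate 3 the log2 fold change of COL4A1 was 0.12 and that of FN1 0.15, and without control replicate 1 they were 0.14 and 0.16. The part of the mitochondrial share of that library in these values was not tested.

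Of 43 genes for the modification, secretion, processing and assembly of matrix proteins, 37 were tested, and 0 were called by edgeR, DESeq2 or limma-voom. Over all genes, edgeR and limma-voom called 0 of 15099 and DESeq2 called 1.22%. At an unadjusted p under 0.05 in the edgeR test, 2 of the 37 were higher and 4 lower, beside 6.56% and 6.58% of all genes tested. The median log2 fold change was 0.02. HSPG2, which encodes the basement membrane proteoglycan perlecan, stood at 429, 519 and 484 CPM in control and 768, 585 and 673 CPM in siRBM3, without overlap (log2 fold change 0.50, SE 0.13, edgeR FDR 0.175). EFEMP1, a fibulin, was likewise higher in every siRBM3 library (0.29, SE 0.10, FDR 0.269). FKBP14, a folding enzyme of procollagen (-0.41, FDR 0.227), TGM2, a cross-linking transglutaminase (-0.28, FDR 0.299), ADAMTS3, a procollagen protease (-0.61, FDR 0.308), and PCOLCE2, an enhancer of procollagen processing (-0.92, FDR 0.279), were lower in every siRBM3 library. PCOLCE2 was low, at 0.54 to 1.45 CPM with at most 42 counts in any library. P3H4 was higher in every siRBM3 library (0.15, FDR 0.530), and BMP1, the procollagen C-proteinase, overlapped (0.21). Of all genes tested, 9.98% were higher and 9.93% lower in every siRBM3 library. The prolyl hydroxylase subunit P4HB, at 1074 to 1157 CPM, showed 0.01.

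Of 24 receptors for collagen, laminin or fibronectin, 22 were tested, and 0 were called by edgeR, DESeq2 or limma-voom. The calls over all genes were again 0 of 15099 by edgeR and limma-voom and 1.22% by DESeq2. In the edgeR test an unadjusted p under 0.05 was reached by 1 in each direction, beside 6.56% of all genes higher and 6.58% lower. The median log2 fold change of the receptors was 0.03. SDC4, a syndecan that binds fibronectin, was the receptor with the smallest p, at 192, 216 and 249.9 CPM in control and 158, 187 and 155 CPM in siRBM3 (log2 fold change -0.40, SE 0.12, edgeR FDR 0.243). ITGB6, the beta chain of an epithelial fibronectin receptor, was at 1.32 to 1.87 CPM in control and 1.98 to 2.58 CPM in siRBM3 (0.57, SE 0.25, FDR 0.378). The fold changes of ITGAV, DDR1 and ITGB1 were 0.29, 0.21 and 0.17, and those of ITGA1, ITGA7 and ITGA10 were -0.31, -0.37 and -0.24, all at an FDR above 0.4. Of these, ITGA1 alone was without overlap, lower in every siRBM3 library. ITGA3, a laminin receptor subunit, was at 1624 to 1831 CPM over all libraries and showed -0.03.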

How the data were processed

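RNA from 3 control and 3 siRBM3 samples of T24 cells was sequenced by the authors as stranded, single-end libraries of polyadenylated RNA. After trimming, the authors placed the reads on GRCh37 using STAR, flagged duplicate reads in Picard and assigned reads to genes with featureCounts. The deposited values are whole-number counts per Ensembl gene without normalization. Which annotation release and strand setting were used, and whether flagged duplicates were counted, is not given in the sources used. Columns were matched to samples by their titles. Symbols, places and lengths came from GENCODE annotation of GRCh37, which matched 55665 of 63677 identifiers.

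Counts were filtered with filterByExpr (minimum count 10, minimum total 15), TMM-scaled, and fitted by robust quasi-likelihood in edgeR 4.0.16, with Benjamini-Hochberg adjustment over the 15099 genes tested. Calls needed a 1.5-fold change and an FDR under 0.01, the thresholds of the study. The SE is the log2 fold change divided by the square root of its F statistic. DESeq2 1.42.0, limma-voom (limma 3.58.1), RLE factors, library size only, FN1 taken out, no filter, a mean of at least 20 counts, the replicate number as a block and each library left out in turn were alternatives. Shares and within-library ratios were compared by exact two-sided permutation tests, which with 3 against 3 cannot go below 0.1. R 4.3.3 and Python 3.11.15 were used.

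Members, roles and the lists of assembly genes, receptors and cell markers were chosen with earlier results of these data known. The genes named are FN1, COL4A1 and LAMC1, the 10 members with the highest level per kilobase, the 6 with the smallest p in each direction, the chains of each ratio, and of the assembly and receptor lists the 4 with the smallest p in each direction. Other members are named within their role. The Ensembl canonical length replaced the union of exons after the data were seen. The endothelial marker PECAM1 was not matched and was not analysed here. In addition, 1 gene that meets the rule for members is not reported here, and it enters no count, share or ratio of the members.

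No libraries of a group were near enough to be 1 library deposited again, with a chi-square per degree of freedom of 27.7 to 141. On simulated counts for this comparison with 200 genes changed, edgeR called 79% of the genes changed by 1 on the log2 scale and 98% of those changed by 2, with 5 false calls. The simulated counts were drawn independently for each gene and library. On the real libraries the same test called 0 of 15099 genes and did not call RBM3, at -2.14. The simulated shares therefore do not give the power behind the 0 members called.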

Additional observations from a re-analysis of the deposited data

How the results depend on the processing

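Of the members, 0 were called by edgeR and 1, in each case LAMB3, was called by DESeq2, without the filter on low counts, or with the replicate number as a block, where the calls over all genes numbered 159, 279 and 336. The log2 fold change of RBM3 passed the FDR threshold there, at -2.14, -2.13 and -2.57. The block rests on the numbers 3 and 5, the only ones the groups share, and the deviations of same-numbered libraries correlated at 0.61 and 0.09, so the numbers were not taken to pair the samples. An unadjusted p under 0.05 was reached by 9 members without the filter (8 higher, 1 lower), in place of 5 (3 higher, 2 lower). With the block it was reached by 7 (5 higher, 13.2%, and 2 lower, 5.26%, beside 11.4% and 13.5% of all genes). DESeq2 and library size only each gave 3 (1 higher, 2.63%, and 2 lower, 5.26%). The genes of the main test stood at 6.27% higher and 6.68% lower with DESeq2, and at 4.05% and 7.48% with library size only. Under RLE factors 5 members were without overlap in place of 8, and the share over all genes is not given for that count. With single libraries left out, the calls over all genes ranged from 0 to 1 (the 1 without control replicate 1). Members at an unadjusted p under 0.05 then ranged from 2 to 5. For each siRBM3 library left out there were 3 (2 higher, 5.26%, and 1 lower, 2.63%). All genes then stood at 4.35% to 5.41% higher and 4.58% to 5.35% lower. Without control replicate 5 there were 4 (2 higher and 2 lower, 5.26% each, beside 4.69% and 4.51% of all genes). Without control replicate 3 there were 2 (1 higher and 1 lower, 2.63% each, beside 5.95% and 5.27% of all genes). Without control replicate 1 there were 5 (4 higher, 10.5%, and 1 lower, 2.63%, beside 7.44% and 8.64%). Members without overlap ranged from 9 to 14, as fewer libraries overlap less, and the share over all genes is not given for these counts. The sign of COL6A2 turned with library size only (-0.048) and over single libraries left out (-0.080 to 0.050). That of LAMA5 turned without the filter (0.0028), with the block (0.021) and over single libraries left out (-0.038 to 0.051). The ratio of COL1A2 to COL1A1 ranged from -0.0057 to 1.11 over libraries left out. The causes were not tested. With library size only the median over all genes was -0.06, and an unadjusted p under 0.05 was reached by 611 genes upward and 1130 downward, against 990 and 993. The median over the members, 0.08, stayed between 0.03 and 0.13 under all alternatives. Over the alternatives the sign turned in 12 of the 38 members, with log2 fold changes of at most 0.17 in size: beside COL6A2 and LAMA5 these were COL11A2, COL4A6, COL7A1, COL8A2, LAMA2, LAMA3, LAMA4, LOX, THBS1 and TNC. Depth limits the genes with few counts, COL3A1, COL6A3, COL1A2 and COL5A1 among them.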
